A study of Mus musculus with 9 samples.

Results

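The genes described here are 34 that drive a mouse cell from the resting state into DNA synthesis: cyclins D and E with their kinases, the activating E2F factors, and the proteins that license, unwind, prime and copy DNA. They were picked by name from knowledge of the pathway, with earlier results of these data known, so the list is described and not tested. Each was read from its brightest probe set, the one with the highest mean over all arrays. All 34 were measured, out of 18193 genes with a usable probe set, and 28 of them lay above the median signal of every array. The samples were T cells of C57BL/6 mice cultured for 24 h in 3 ways. In syngeneic cultures the cells met C57BL/6 dendritic cells, and in allogeneic cultures BALB/c dendritic cells, both at 20 T cells per dendritic cell. In the antibody cultures, called anti-CD3/CD28 here, the cells received anti-CD3e and anti-CD28 at 0.1 µg/ml, and the labels name no dendritic cells. The sources used here give no age or sex of the mice, and the T cells carry no engineered allele according to the labels. All 3 groups were then handled alike: CD11c microbeads and a negative selection for T cells, ultraviolet crosslinking (400 mJ/cm2 as the first dose), immunoprecipitation with an antibody to AGO, amplification, and 1 Affymetrix expression array per sample. Each culture had 3 arrays, numbered 1 to 3 as biological replicates, and no animal or culture is named, so p-values measure the spread between these samples. AGO is Argonaute, the protein through which microRNAs find and repress their target transcripts. No array of input RNA was used here, so more transcript in the cell and more of it bound by AGO cannot be told apart. In such bulk samples, fewer cells of a type and less RNA per cell cannot be told apart either.

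A resting T cell holds its replication genes down through retinoblastoma family proteins, which sit on E2F factors. Signals through the antigen receptor and CD28 induce cyclin D and its kinases, which release E2F, and E2F in turn induces cyclin E, the replication machinery and the enzymes that supply deoxynucleotides. Origins of replication are marked by the origin recognition complex, loaded with the MCM helicase by Cdc6 and Cdt1, and fired once Cdc45 and the GINS complex join the helicase. T cells take about a day from the first stimulus to the first round of DNA synthesis, and 24 h therefore falls near the G1/S boundary.

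Values are log2 signals, so that a difference of 1 is a doubling. Arrays with 1 replicate number in common were more alike than the arrays of 1 culture, and differences are therefore given within each number as well as between culture means. The allogeneic and anti-CD3/CD28 arrays numbered 1 were nearly alike. The SD of their difference was 0.103 over all genes and 0.23 over the 34 genes, against 0.42 to 0.75 over all genes for the other pairs within a number, and 7 of the 34 genes had exactly equal values on both. Exact equality of values within a number held for 17.9% to 49.0% of all genes. Of the T cell markers, 11 of 11 measured genes, Cd3e, Cd4 and Cd8a among them, lay above the array median on all 9 arrays. In each culture 10 of 12 dendritic cell genes and 5 of 8 B cell genes also lay above it on all 3 arrays, so this measure does not single out T cells. Markers of other cells were present as well. The summed linear signal of 14 macrophage and monocyte genes was 6870 to 9532 in syngeneic, 907 to 1725 in allogeneic and 384 to 1104 in anti-CD3/CD28 cultures. Of these 14 genes, 2, 4 and 7 never exceeded the median signal of an array in the respective cultures. All 12 dendritic cell genes had lower means in both stimulated cultures than in syngeneic culture, with summed linear signals of 10798 to 28477 in syngeneic, 7075 to 30462 in allogeneic and 5823 to 13899 in anti-CD3/CD28 cultures. For 8 B cell genes the sums were 6059 to 14083 in syngeneic, 4034 to 7840 in allogeneic and 2643 to 6768 in anti-CD3/CD28 cultures. For 6 granulocyte genes they were 175 to 1301, 162 to 1170 and 114 to 316. Summed signals of 6 stromal genes were 1712 to 8182 in replicate 2 and 100.4 to 125.7 in replicates 1 and 3. The part of these other cells in the results below was not tested.

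Many replication genes are known targets of E2F, and their promoters were searched for 4 core forms of its site, TTGGCGC and its variants TTCCCGC plus TTCGCGC plus TTGCCGC, on both strands. RefSeq windows (assembly GRCm38.p6) from 250 bases before to 50 after a start were at hand for 29 of the 34 genes. A core was found in 18 of these 29 (62.1%), against 10.9% of 27025 genes with a window and 16.0% of the genes measured on the arrays. Replication and S phase genes outside the 34 had a like share, 20 of 34 (58.8%), and G1/S inhibitors and repressors had 5 of 11 (45.5%). By role, it occurred in 4 of 5 MCM genes, in 4 of 5 genes for polymerase, primase, clamp and loader, and in neither of the cyclin genes with a window. CCAAT, the box bound by NF-Y, was found on either strand for 19 of the 29 genes (65.5%), against 41.1% of all genes. A match describes letters in a window and not a bound site. The stretches before the start of 3 genes that ranked among the 4 lowest p-values of the 34 in a comparison below, which for Prim1 was an unadjusted p of 0.253 in limma, are shown because they carry, or lack, that core. E2F core letters are in capitals. The Rrm1 stretch lies at chr7:102441445-102441694 on the plus strand, Prim1 at chr10:128014965-128015214 on the plus strand and Ccne1 at chr7:38107491-38107740 on the minus strand, each 5′ to 3′.
Rrm1: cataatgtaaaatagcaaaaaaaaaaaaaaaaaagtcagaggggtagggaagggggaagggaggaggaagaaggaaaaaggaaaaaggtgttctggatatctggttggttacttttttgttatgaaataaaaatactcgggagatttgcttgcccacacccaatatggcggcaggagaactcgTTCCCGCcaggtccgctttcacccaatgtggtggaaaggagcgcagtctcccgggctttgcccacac
Prim1: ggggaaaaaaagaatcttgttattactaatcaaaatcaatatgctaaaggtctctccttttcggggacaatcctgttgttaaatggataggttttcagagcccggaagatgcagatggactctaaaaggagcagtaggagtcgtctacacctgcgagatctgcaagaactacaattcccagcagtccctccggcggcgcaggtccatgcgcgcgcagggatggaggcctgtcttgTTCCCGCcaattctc
Ccne1: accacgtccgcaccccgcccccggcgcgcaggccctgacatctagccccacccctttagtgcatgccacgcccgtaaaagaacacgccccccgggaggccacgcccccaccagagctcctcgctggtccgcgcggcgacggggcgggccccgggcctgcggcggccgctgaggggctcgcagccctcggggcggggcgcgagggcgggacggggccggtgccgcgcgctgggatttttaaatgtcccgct
The core ended 60 bases before the start in Rrm1 and 8 bases before it in Prim1. Ccne1 has none of these 4 forms in its window, which says nothing of E2F sites elsewhere at the gene.

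In both stimulated cultures most of the 34 genes had higher means than in syngeneic culture. With anti-CD3/CD28, 31 of 34 were higher, as were 48.5% of all genes, and the median log2 difference was 0.70 against a median of 0 over all genes. In allogeneic culture, 31 of 34 were higher, as were 56.0% of all genes, with a median of 0.44 against 0.027. T cell markers were higher with anti-CD3/CD28 as well, in 10 of 11 genes with a median of 0.30 and of −0.072, 0.52 and 0.51 within numbers 1, 2 and 3, and in allogeneic culture in 7 of 11 with a median of 0.024; their part in these differences was not tested. A mean difference of 1 or more was reached by 10 of the 34 with anti-CD3/CD28 (0.737% of all genes) and by 3 in allogeneic culture (0.434%). No single gene passed the test. In limma with all 9 arrays, 0 of the 34 and 0 of 18193 genes (0.00%) had an adjusted p under 0.05 in each of the 3 comparisons. The unadjusted p was under 0.05 for 27 genes in allogeneic against syngeneic culture (0.148%), 156 in anti-CD3/CD28 against syngeneic culture (0.857%) and 24 between the stimulated cultures (0.132%), of which 1, Rrm1 with anti-CD3/CD28, was among the 34. With the replicate number as a block, which again called 0 genes (0.00%), 4 of the 34 in allogeneic and 11 in anti-CD3/CD28 culture were higher at an unadjusted p under 0.05, as were 2.33% and 2.23% of all genes. With the number as a random effect, 1 gene (0.00550%) and 30 genes (0.165%) passed the adjusted threshold against syngeneic culture, and 0 of the 34. Both comparisons share the 3 syngeneic arrays, so their likeness is no separate observation.

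**Figure D1:**
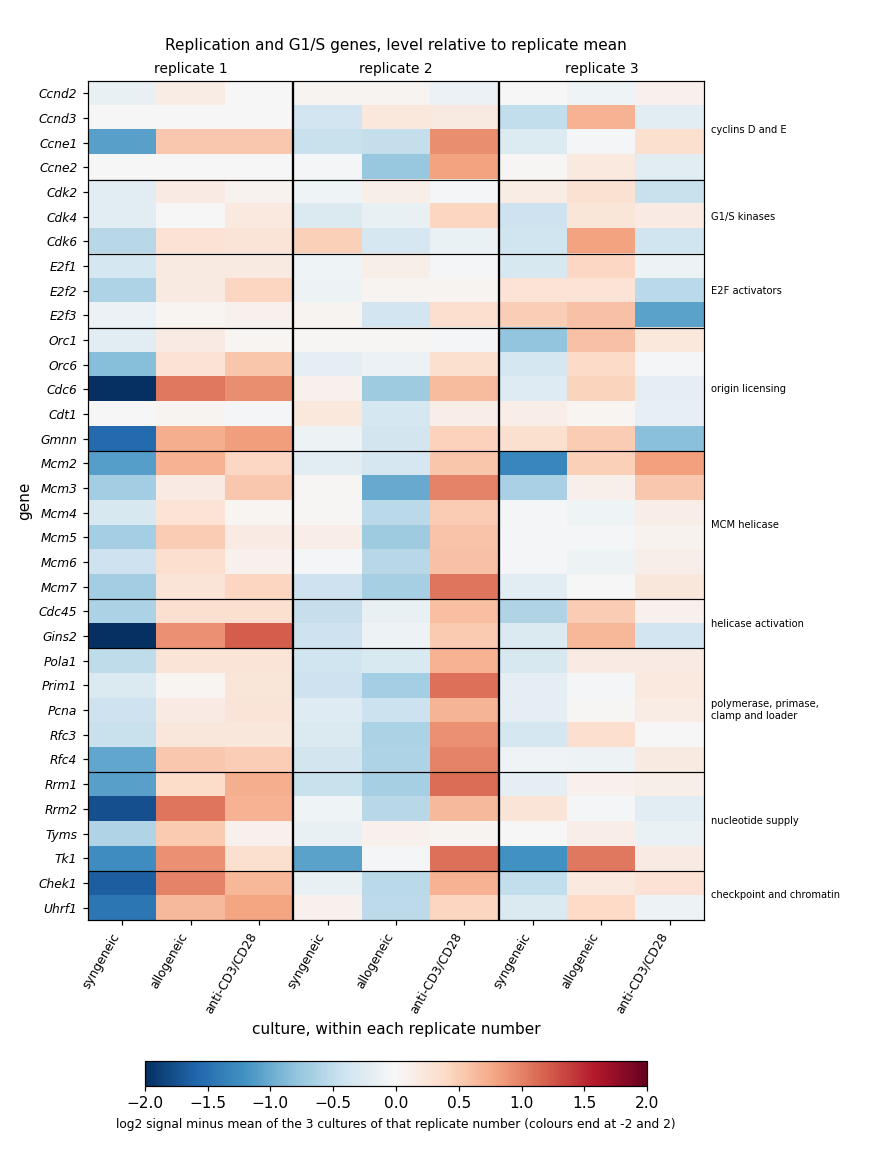
Log2 signal of each of the 34 genes (rows, grouped by role) on the 9 arrays, minus the mean of the 3 cultures with the same replicate number; colours end at -2 and 2. The syngeneic column is the blue one in replicate 1, and in replicate 2 the anti-CD3/CD28 column alone is mostly red, with the highest value of the 3 cultures in 25 of the 34 genes.

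The 3 replicate numbers did not give the same picture. With anti-CD3/CD28 the median difference from syngeneic culture was 0.83, 0.66 and 0.22 in numbers 1, 2 and 3, with 31, 30 and 24 genes higher (32.9%, 42.2% and 34.3% of all genes). Of the 34 genes, 21 were higher within all 3 numbers (7.80% of all genes) and 1, Cdt1, was lower within all 3 (9.15%). In allogeneic culture the medians were 0.85, −0.24 and 0.26, with 32, 11 and 26 genes higher (32.2%, 49.7% and 37.7% of all genes). There, 9 genes were higher within all 3 numbers (7.29% of all genes) and 0 were lower within all 3 (7.96%). Number 2 thus set the cultures apart: anti-CD3/CD28 alone had the highest value of the 3 cultures in 25 genes (19.2% of all genes), whereas in number 3 allogeneic culture alone was highest in 17 (22.7%) and anti-CD3/CD28 in 13 (20.9%).

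On the probe sets read here, values of 6 genes were higher in both stimulated cultures than in syngeneic culture within every number (3.23% of all genes): Cdk4, E2f1, Orc6, Cdc45, Pola1 and Tk1. Of these, Cdc45 and Tk1 did not exceed the median signal of 2 arrays each, and Pola1 of 1. In number 1 both stimulated cultures had exactly equal values for E2f1, Cdc45 and Pola1, and for Pola1 in number 3 as well. The means rest partly on the arrays numbered 1, where the syngeneic values were low. Without those 3 arrays the median was 0.42 with anti-CD3/CD28, with 27 of 34 genes higher (46.5% of all genes), and 0.058 in allogeneic culture, with 20 higher (55.1%). The allogeneic median was 0.19 without syngeneic replicate 1, 0.76 without syngeneic replicate 3, 0.80 without allogeneic replicate 2 and 0.080 without allogeneic replicate 3, and the anti-CD3/CD28 median was 0.36 without syngeneic replicate 1.

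**Figure D2:**
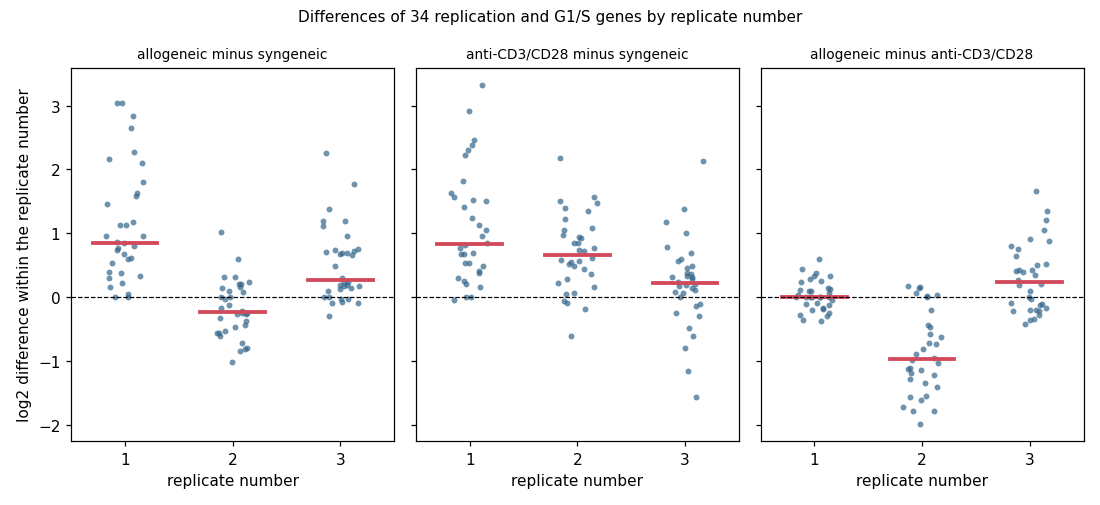
Each point is 1 of the 34 genes, as the log2 difference between 2 cultures (vertical axis) within a replicate number (horizontal axis); red bars are medians and the dashed line is 0. Medians of the anti-CD3/CD28 difference from syngeneic culture are 0.83, 0.66 and 0.22, those of the allogeneic one are 0.85, −0.24 and 0.26, and the allogeneic minus anti-CD3/CD28 cloud drops to −0.98 in replicate 2.

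The D and E cyclins, the regulatory subunits of the G1/S kinases, had medians of 0.33 in allogeneic and 0.24 in anti-CD3/CD28 culture over 4 genes. Ccne1, which encodes cyclin E1, the partner of Cdk2 at S phase entry, had log2 signals of 7.23, 7.13 and 7.99 in syngeneic replicates 1 to 3, of 8.86, 7.10 and 8.22 in allogeneic and of 8.86, 8.52 and 8.58 in anti-CD3/CD28 culture. All 3 anti-CD3/CD28 arrays lay above all 3 syngeneic arrays, while allogeneic replicate 2 lay with the syngeneic ones. Its means were 7.45 ± 0.47 (SD, n = 3), 8.06 ± 0.89 and 8.65 ± 0.18, and the anti-CD3/CD28 difference of 1.20 (SE 0.61) had an adjusted p of 1 in limma. Ccnd2, a cyclin D of lymphocytes, had 11.52, 11.73 and 10.93 in syngeneic, 11.81, 11.72 and 10.83 in allogeneic and 11.68, 11.55 and 11.00 in anti-CD3/CD28 culture. Its 3 cultures overlapped, and its mean differences of 0.063 and 0.017 from syngeneic culture were smaller than the spread within a culture. The other 6 Ccnd2 probe sets averaged 0.30 and 0.36, and 2 of them were higher in both stimulated cultures within every number. Ccnd3, another cyclin D, had the same value in all 3 cultures of number 1 on the probe set read here. In numbers 2 and 3 it was higher by 0.59 and 1.20 in allogeneic and by 0.58 and 0.29 in anti-CD3/CD28 culture. Another Ccnd3 probe set, with a mean of 7.48, differed by −0.19, 0.0060 and −0.51 in allogeneic and by −0.19, 0 and 0.31 in anti-CD3/CD28 culture. A dim one, with a mean of 4.15, had mean differences of 0.21 and 0.49. Ccne2, encoding cyclin E2, was not above the median signal of 5 of the 9 arrays.

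The kinases and the E2F activators, which act at the top of the pathway, had small mean differences with anti-CD3/CD28. Cdk4, a kinase partner of cyclin D, had the largest of them, with 9.22, 8.95 and 10.17 in syngeneic, 9.44, 9.09 and 10.82 in allogeneic and 9.63, 9.67 and 10.73 in anti-CD3/CD28 culture. Within every number both stimulated cultures were above the syngeneic one, but replicate 3 was high in all 3 cultures, so the groups overlapped. Mean differences were 0.34 (SE 0.57) and 0.57 (SE 0.57), each with an adjusted p of 1 in limma. The Cdk4 probe set read here carries a suffix that marks possible matches to other transcripts. A probe set without that suffix, with a mean of 9.46, had −0.18 in allogeneic number 2 and was higher otherwise. A dimmer one, with a mean of 6.95, was higher in both stimulated cultures within every number. Cdk6, another cyclin D partner, differed by 0.41 and 0.063, and Cdk2, the cyclin E partner, by 0.25 and −0.082. E2f1, an activating E2F, had 5.60, 7.60 and 6.98 in syngeneic, 6.13, 7.81 and 7.71 in allogeneic and 6.13, 7.65 and 7.19 in anti-CD3/CD28 culture. Replicate 1 was low in all 3 cultures, and the differences of 0.53, 0.049 and 0.21 with anti-CD3/CD28 were small beside that. E2f2 differed by 0.32 and 0.13 and E2f3 by −0.064 and −0.36, the latter through a difference of −1.57 in number 3, where the anti-CD3/CD28 array had 6.14 and the syngeneic array 7.71. A dimmer E2f3 probe set, with a mean of 6.19, went the other way, by 0.35 and 0.27, with 0.52 and 0.30 in number 3.

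Among the 5 licensing genes, medians were 0.65 in allogeneic and 0.59 in anti-CD3/CD28 culture. Orc6, a subunit of the origin recognition complex, had 7.99, 8.87 and 9.02 in syngeneic, 9.12, 8.95 and 9.74 in allogeneic and 9.40, 9.39 and 9.33 in anti-CD3/CD28 culture. The anti-CD3/CD28 arrays were close together at 9.37 ± 0.035 (SD, n = 3) and all above the syngeneic arrays at 8.63 ± 0.55, a difference of 0.75 (SE 0.50, adjusted p = 1 in limma). Cdc6, which loads the helicase, had 5.34, 8.17 and 7.85 in syngeneic, 8.39, 7.36 and 8.55 in allogeneic and 8.26, 8.71 and 7.91 in anti-CD3/CD28 culture. Its low syngeneic value in replicate 1 set the mean differences of 0.98 and 1.17, which were −0.052 and 0.30 without the arrays numbered 1. Cdt1, the other loading factor, had 10.14, 9.69 and 10.48 in syngeneic, 10.19, 9.12 and 10.38 in allogeneic and 10.10, 9.60 and 10.17 in anti-CD3/CD28 culture. On the probe set read here, Cdt1 was the 1 member below syngeneic culture within every number with anti-CD3/CD28, with differences of −0.041, −0.088 and −0.30. A dimmer Cdt1 probe set, with a mean of 7.61, went the other way with anti-CD3/CD28, by 1.13, 0.73 and 0.26. In allogeneic culture that probe set differed by 0.86, −0.66 and 0.59. The mean over all 3 Cdt1 probe sets, of which the dimmest had a mean of 3.34, gave differences of 0.0069 and 0.18 in place of −0.20 and −0.14. Gmnn, encoding geminin, which binds and blocks Cdt1, differed by 2.38, 0.56 and −1.16 with anti-CD3/CD28, so its sign turned between numbers. Orc1, the large subunit of the origin recognition complex, differed by 0.58 and 0.40.

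**Figure D3:**
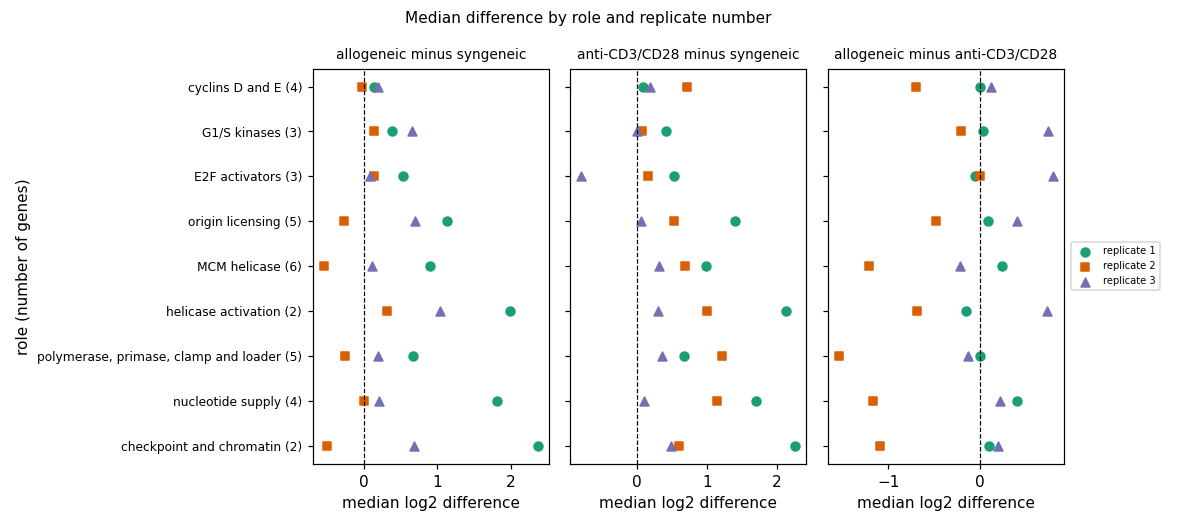
Median log2 difference (horizontal axes) of the genes of each role (rows, number of genes in parentheses) within replicate numbers 1 to 3. With anti-CD3/CD28 the MCM helicase lies at 0.99, 0.69 and 0.31 and polymerase, primase, clamp and loader at 0.68, 1.21 and 0.36; in allogeneic culture both roles lie below 0 in replicate 2, at −0.54 and −0.26.

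The 6 MCM genes encode the ring that unwinds DNA at the fork, and within a number their differences were mostly of 1 sign. With anti-CD3/CD28 all 6 were above syngeneic culture within all 3 numbers, with medians of 0.99, 0.69 and 0.31. In allogeneic culture 0 of 6 were above it within all 3 numbers: all 6 were higher in number 1 (median 0.91), all 6 lower in number 2 (median −0.54), and 3 higher in number 3 (median 0.12). Mcm3 had 9.93, 9.33 and 10.02 in syngeneic, 10.79, 8.31 and 10.77 in allogeneic and 11.17, 10.30 and 11.20 in anti-CD3/CD28 culture. The anti-CD3/CD28 arrays lay above the syngeneic ones without overlap, and allogeneic replicate 2 was the lowest of all 9 arrays. The mean differences from syngeneic culture were 0.19 (SE 0.62) and 1.13 (SE 0.62), each with an adjusted p of 1 in limma. Mcm7 had 10.77, 9.67 and 11.36 in syngeneic, 11.73, 9.42 and 11.59 in allogeneic and 11.90, 11.15 and 11.81 in anti-CD3/CD28 culture. Here too allogeneic replicate 2 was the lowest array, and the means were 10.60 ± 0.86 (SD, n = 3), 10.91 ± 1.29 and 11.62 ± 0.41.

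On the probe sets read here, Mcm2 had the largest MCM differences, 1.15 and 1.47. Its spread was wide in every culture, from 5.34 to 8.96 in syngeneic, 6.87 to 10.73 in allogeneic and 6.85 to 11.09 in anti-CD3/CD28 culture. Replicate 3 was the highest array each time. The other Mcm2 probe set, with a mean of 7.92 against 7.97 and a suffix for possible matches to other transcripts, gave 0.24 and 0.67. In allogeneic number 2 that probe set differed by −1.17. Mcm4, Mcm5 and Mcm6 differed from syngeneic culture by 0.34, 0.47 and 0.41 with anti-CD3/CD28 and by 0.0040, 0.11 and 0.044 in allogeneic culture. The brightest probe sets of Mcm3, Mcm4, Mcm5, Mcm6 and Mcm7 carry a suffix that marks possible matches to other transcripts. Of the 9 MCM probe sets without that suffix, the Mcm2 one included, 8 were higher with anti-CD3/CD28 within all 3 numbers and 2 in allogeneic culture. An unsuffixed Mcm6 probe set was among those higher in both, with differences of 1.45, 0.12 and 0.84 in allogeneic and 1.69, 1.15 and 0.90 in anti-CD3/CD28 culture. The T cell markers were also lower in allogeneic than in anti-CD3/CD28 culture in number 2, in 11 of 11 genes with a median of −0.57, and their part in the MCM values was not tested.

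**Figure D4:**
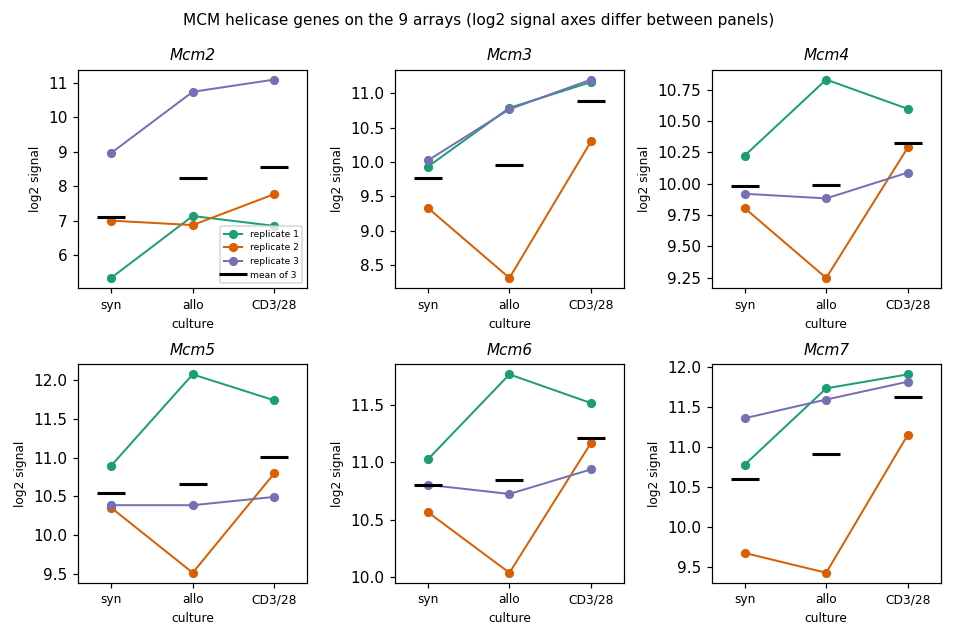
Log2 signals of the 6 MCM genes (1 panel each, vertical axes differ) in syngeneic (syn), allogeneic (allo) and anti-CD3/CD28 (CD3/28) culture; lines join arrays with the same replicate number and black bars are means of 3. The replicate 2 line dips at allogeneic culture in all 6 panels, as for Mcm3 with 8.31 between 9.33 and 10.30.

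Gins2, a GINS subunit, and Cdc45, which both activate the loaded helicase, were above syngeneic culture within all 3 numbers in allogeneic culture. Gins2 had 5.49, 7.15 and 8.62 in syngeneic, 8.53, 7.46 and 9.56 in allogeneic and 8.82, 8.10 and 8.51 in anti-CD3/CD28 culture. Its syngeneic replicate 1 was the lowest array of the 9, and the groups overlapped through syngeneic replicate 3. Mean differences were 1.43 (SE 0.80) and 1.39 (SE 0.80), each with an adjusted p of 1 in limma, and without the arrays numbered 1 they were 0.63 and 0.42. Cdc45 differed by 0.95, 0.31 and 1.12 in allogeneic and by 0.95, 1.05 and 0.70 in anti-CD3/CD28 culture.

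The 5 genes for primer synthesis and the sliding clamp were higher with anti-CD3/CD28 within every number, with medians of 0.68, 1.21 and 0.36. In allogeneic culture 1 of 5, Pola1, was, and the medians were 0.67, −0.26 and 0.19. Prim1, the catalytic subunit of primase, had 8.89, 8.58 and 10.11 in syngeneic, 9.22, 8.31 and 10.27 in allogeneic and 9.42, 10.09 and 10.48 in anti-CD3/CD28 culture. Its replicate 2 separated the stimulated cultures, since the allogeneic array was the lowest of the 9 and the anti-CD3/CD28 array was higher by 1.51 than the syngeneic one. Pcna, the sliding clamp, had 12.21, 11.05 and 11.86 in syngeneic, 12.80, 10.88 and 12.06 in allogeneic and 12.89, 11.99 and 12.19 in anti-CD3/CD28 culture. The order syngeneic, allogeneic, anti-CD3/CD28 held in numbers 1 and 3, and the groups overlapped. Mean differences with anti-CD3/CD28 were 0.81 (SE 0.61) for Prim1 and 0.64 (SE 0.46) for Pcna, each with an adjusted p of 1 in limma. Rfc3 and Rfc4, subunits of the clamp loader, differed by 0.75 and 1.04 with anti-CD3/CD28 and by 0.34 and 0.43 in allogeneic culture. Pola1, the catalytic subunit of the primer-making polymerase, differed by 0.78 and 0.45.

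The 4 enzymes of deoxynucleotide supply included the gene with the largest differences, Tk1, thymidine kinase of the salvage route. Tk1 had 4.43, 5.57 and 6.76 in syngeneic, 6.60, 6.59 and 9.02 in allogeneic and 6.01, 7.74 and 8.14 in anti-CD3/CD28 culture. Both stimulated cultures were above the syngeneic one within every number, by 2.17, 1.02 and 2.26 in allogeneic and by 1.57, 2.17 and 1.38 in anti-CD3/CD28 culture, though groups overlapped because replicate 3 was high throughout. Mean differences were 1.82 and 1.71 (SE 0.88 each), with an adjusted p of 1 in limma and of 0.709 and 0.684 with the replicate number as a block. Rrm1, the large subunit of ribonucleotide reductase, had 8.79, 9.07 and 10.11 in syngeneic, 10.25, 8.85 and 10.40 in allogeneic and 10.61, 10.64 and 10.43 in anti-CD3/CD28 culture. The anti-CD3/CD28 arrays, at 10.56 ± 0.11 (SD, n = 3), lay above all syngeneic arrays (9.32 ± 0.70) and all allogeneic arrays (9.83 ± 0.86). The difference from syngeneic culture was 1.24 (SE 0.53, adjusted p = 1 in limma).

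Rrm2, the small subunit that limits reductase activity, had 8.18, 10.43 and 10.54 in syngeneic, 11.01, 9.96 and 10.24 in allogeneic and 10.63, 11.16 and 10.05 in anti-CD3/CD28 culture. Its syngeneic value was low in number 1 alone, and in number 3 both stimulated cultures lay below it. The probe set read here carries a suffix for possible matches to other transcripts, and the other 2, without one, were higher in both stimulated cultures within every number. In number 3 they were higher by 0.31 and 1.53 in allogeneic and by 0.15 and 0.86 in anti-CD3/CD28 culture. In number 2 their allogeneic differences were only 0.027 and 0.0045, against 0.92 and 2.10 with anti-CD3/CD28. For the probe set with the suffix, the differences without the arrays numbered 1 were −0.39 and 0.12 in place of 0.69 and 0.90. Tyms, thymidylate synthase, had 4.46, 4.99 and 5.30 in syngeneic, 5.59, 5.23 and 5.43 in allogeneic and 5.15, 5.20 and 5.17 in anti-CD3/CD28 culture. These are low signals, not above the median signal of 4 of the 9 arrays. On the probe sets read here, the checkpoint kinase gene Chek1 and Uhrf1, which brings maintenance methylation to newly copied DNA, were higher with anti-CD3/CD28 within every number. Uhrf1 had 5.99, 8.58 and 9.58 in syngeneic, 8.09, 7.97 and 10.27 in allogeneic and 8.22, 8.93 and 9.77 in anti-CD3/CD28 culture. Its spread across numbers exceeded that between cultures, with differences of 0.73 and 0.92 (SE 0.91 each). Chek1 differed by 0.98 and 1.31, and by 0.15 and 0.81 without the arrays numbered 1, on a probe set with a suffix for possible matches. Its other probe sets, without that suffix, averaged 0.19 and 0.36. With anti-CD3/CD28 in number 2, those with means of 6.10, 6.03 and 3.88 had a difference of 0. The one with a mean of 5.69 was higher with anti-CD3/CD28 within every number.

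**Figure D5:**
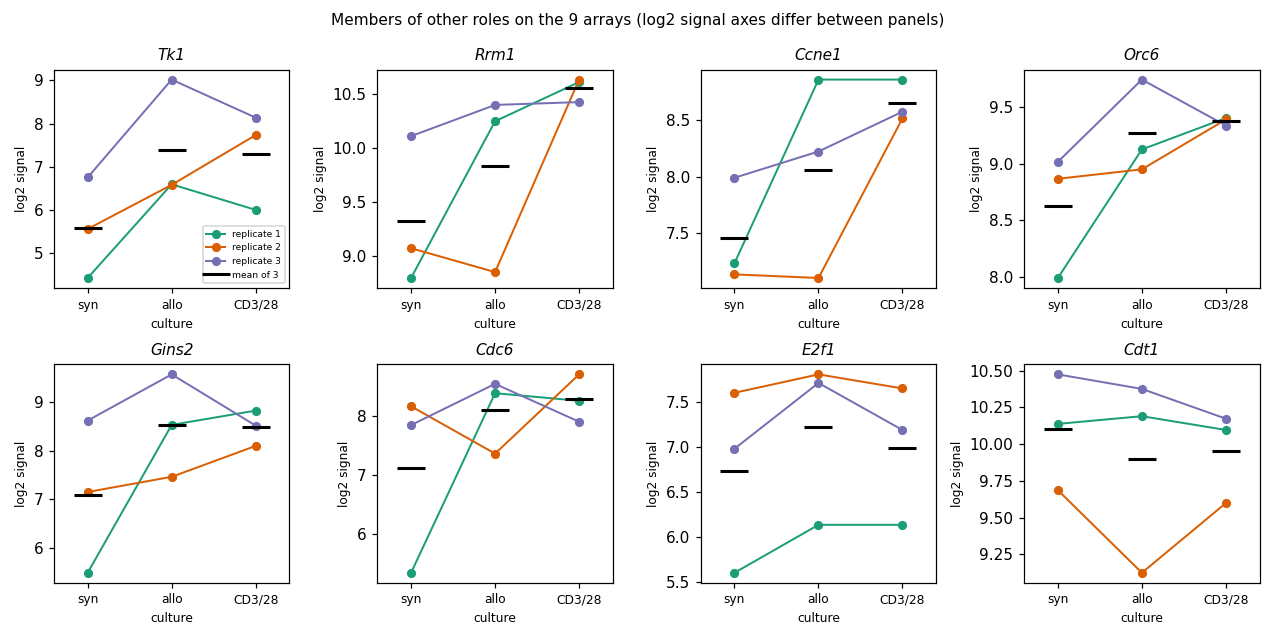
Log2 signals of 8 genes of other roles (1 panel each, vertical axes differ) in syngeneic (syn), allogeneic (allo) and anti-CD3/CD28 (CD3/28) culture; lines join arrays with the same replicate number and black bars are means of 3. All 3 Tk1 lines go up from syngeneic to both stimulated cultures, and the anti-CD3/CD28 points of Rrm1 lie together at 10.43 to 10.64.

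Groups without any overlap were counted across the 34 genes. Anti-CD3/CD28 arrays lay wholly above the syngeneic ones for 4 genes, Ccne1, Orc6, Mcm3 and Rrm1 (0.412% of all genes), and allogeneic arrays for 0 genes (0.192%). The other 52 probe sets of these genes gave a like order, with 29 higher within all 3 numbers for anti-CD3/CD28 and 12 for allogeneic culture. The share over all probe sets was not computed.

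Allogeneic and anti-CD3/CD28 culture, set directly against each other, gave no adjusted p under 0.05 for any of the 34 genes. The allogeneic mean was lower for 22 genes (35.0% of all genes) and higher for 12 (60.1%), with a median of −0.20 against 0.038 over all genes. In number 2 it was lower for 27 (31.4%), and by 1 or more for 16 (4.30%), with a median of −0.98. In numbers 1 and 3 the medians were 0 and 0.24. On the probe sets read here, Mcm3, Mcm7, Prim1, Pcna and Rrm1 were lower in allogeneic culture within all 3 numbers (2.58% of all genes). Cdk2, Orc1 and Tyms were higher (4.39%). The mean was lower on every probe set of the former genes, but higher on only 1 of 2 for Cdk2, 1 of 2 for Orc1 and 1 of 4 for Tyms. Within numbers, a Mcm7 probe set without a suffix differed by 0.42, −0.76 and 0.31, and the other Prim1 one by 0.28, −1.80 and −0.21. Mcm3 had the largest mean difference of the 34, −0.93 (SE 0.62, adjusted p = 1 in limma), and its difference of −1.99 in number 2 was far from those of −0.38 and −0.43 in numbers 1 and 3. Rrm1 arrays of allogeneic culture lay wholly below those of anti-CD3/CD28 culture (0.0550% of all genes), with a difference of −0.026 in number 3, and Tyms arrays wholly above them (0.269%). The median was 0.15 without allogeneic replicate 2, −0.50 without allogeneic replicate 3, −0.059 without allogeneic replicate 1 and −0.0059 without anti-CD3/CD28 replicate 3.

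Further genes of the pathway had a like order of median differences between culture means. Of 41 listed replication and S phase genes outside the 34, 39 were measured. Their median difference from syngeneic culture was 0.26 in allogeneic and 0.50 in anti-CD3/CD28 culture. Within numbers 1, 2 and 3 the medians were 0.72, −0.18 and 0.39 in allogeneic and 0.72, 0.47 and 0 in anti-CD3/CD28 culture. In number 3, 19 were higher and 18 lower with anti-CD3/CD28. Without the arrays numbered 1 the medians were −0.012 and 0.42. Within all 3 numbers 10 and 18 of the 39 genes were higher (7.29% and 7.80% of all genes), and 0 passed the test. Tipin, a fork protection factor, had 7.22, 9.15 and 9.67 in syngeneic and 9.72, 9.49 and 10.26 in allogeneic culture. Pold1, the catalytic subunit of a main replicative polymerase, had 8.02, 9.82 and 9.45 in syngeneic and 9.52, 10.19 and 10.69 in anti-CD3/CD28 culture. Both were higher within every number in the culture named, and their groups overlapped. In the other stimulated culture Tipin had 9.58, 9.77 and 9.39 and Pold1 had 9.48, 9.13 and 10.35. There Tipin lay below syngeneic culture in number 3 and Pold1 in number 2. The 8 measured G1/S activators had medians of 0.59 and 0.74, with 0 past the test. Without the arrays numbered 1 their medians were 0.19 and 0.089. Myc, a growth regulator upstream of cyclin D, was higher with anti-CD3/CD28 by 0.82, 0.85 and 1.03. In allogeneic culture Myc was higher in numbers 1 and 3, but in number 2 it had 9.86 against 9.96 in syngeneic culture.

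The 15 G1/S inhibitors and repressors had medians of 0.087 and −0.039, with 0 past the test. Cdkn1b, which encodes p27, the inhibitor of cyclin E kinase in resting T cells, had 10.46, 10.66 and 10.44 in syngeneic, 10.05, 10.28 and 9.84 in allogeneic and 9.85, 10.13 and 9.92 in anti-CD3/CD28 culture. All 6 stimulated arrays lay below all 3 syngeneic arrays, with differences of −0.46 and −0.55 (SE 0.38 each, adjusted p = 1 in limma). Of all genes, 0.451% in allogeneic and 1.52% in anti-CD3/CD28 culture lay wholly below syngeneic culture. With the replicate number as a block in limma, the Cdkn1b p was 0.0040 and 0.0017 unadjusted and 0.709 and 0.677 adjusted. Cdkn1a, which encodes the inhibitor p21, had 6.52, 8.38 and 10.30 in syngeneic and 6.89, 7.28 and 5.84 in anti-CD3/CD28 culture, so that its largest gap, −4.47, was in number 3. E2f8, a repressor that E2F itself induces, was higher in allogeneic culture by 2.03, 1.29 and 0.66. With anti-CD3/CD28 it had 8.43, 7.46 and 6.78, against 6.30, 6.81 and 8.34 in syngeneic culture, and was thus lower in number 3.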

How the data were processed

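The values are log2 signals per probe set as the authors deposited them. They were made with RMA (robust multi-array average) per the submitters' processing notes. Its software, its version and which arrays went through it together are not stated, that is, not given in the sources used here. From 45101 probe sets, controls (64), those of several genes (932) and those without a gene (9160) were dropped. The other 34945 stood for 18193 genes. For 34741 of these probe sets the gene ID was found in the RefSeq gene list and the symbol was taken from there, whether or not it changed. The probe set of highest mean signal over the 9 arrays stood for a gene, a choice among several for 28 of the 34 genes described. Array medians were 4.58 to 5.67, and no further normalization was applied.

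The test was limma (version 3.58.1, R 4.3.3) with 1 mean per culture over all 9 arrays, an intensity trend, Benjamini-Hochberg adjusted p-values (all genes, threshold 0.05), and it was checked on simulated data. SEs of differences had a median of 0.64, and of 0.16 when the replicate number was a block (0.64 and 0.36 over the 34 genes). The number of arrays limits the precision. Once culture means were removed, arrays sharing a number correlated at 0.811 to 0.921 (9 pairs) and other arrays at −0.597 to −0.165 (18 pairs), so the numbers pair the arrays.

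The 34 genes, their roles, the other lists and the naming rule were chosen with earlier results of these data known. Values on all arrays are given for the 4 members with the smallest p in each comparison, the brightest of each role and those whose cultures do not overlap. Promoter stretches were printed only where the bases before the start lie outside the annotated gene, so none is shown for Tk1, Cdc6 or Mcm7. Alternatives were the replicate block (fixed or random), quantile normalization, median centring, dim genes left out (40th percentile), the mean of probe sets, other variance priors, only the cultures compared, each array left out in turn and the arrays numbered 1 left out. The last of these together with the block was added after the data were seen.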

Additional observations from a re-analysis of the deposited data

How the results depend on the processing

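No member passed the threshold under any alternative run. The replicate block gave 0 genes past the threshold in each comparison, changed no call of the members, and left 4, 11 and 0 members higher at an unadjusted p under 0.05. With the replicate number as a random effect, 1 gene passed in allogeneic and 30 in anti-CD3/CD28 against syngeneic culture, and with arrays centred on their medians 1 passed in the latter; the cause was not tested. With each array left out in turn, member medians ran from 0.080 to 0.80 in allogeneic and from 0.36 to 1.03 in anti-CD3/CD28 against syngeneic culture, and from −0.50 to 0.15 in allogeneic against anti-CD3/CD28 culture. No depth is known for arrays, and low signals (Ccne2 failed to exceed the median signal of 5 arrays, Tyms of 4, Tk1 and Cdc45 of 2, Pola1 and Chek1 of 1) limit what can be read from them.

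Signs of differences that had passed no test turned as follows, and the cause was not tested. Without the arrays numbered 1, with or without the block, allogeneic against syngeneic culture gave Cdc6 −0.052, Mcm3 −0.14, Prim1 −0.053, Mcm7 −0.0070, Ccnd2 −0.052 and Rrm2 −0.39; anti-CD3/CD28 against syngeneic culture gave Ccnd2 −0.053; allogeneic against anti-CD3/CD28 culture gave Tk1 −0.14. Quantile normalization gave Ccnd2 −0.021 with anti-CD3/CD28 and Tk1 −0.099 between the stimulated cultures, and median centring gave Ccnd2 −0.0015. The mean of probe sets gave Cdt1 0.0069 and 0.18 against syngeneic culture and, between the stimulated cultures, Ccnd2 −0.044 and Tyms −0.034.

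With each array left out, allogeneic against syngeneic culture ran from −0.43 to 0.55 for Prim1, −0.073 to 1.03 for E2f1, −0.083 to 1.10 for Rrm2, −0.30 to 1.49 for Uhrf1, −0.22 to 1.02 for Mcm3, −0.15 to 1.06 for Mcm7, −0.24 to 0.72 for Pcna, −0.17 to 0.38 for Ccnd2, −0.44 to 0.18 for Cdt1 and −0.18 to 0.70 for Cdk4. Anti-CD3/CD28 against syngeneic culture ran from −0.30 to 0.70 for E2f1, −0.11 to 1.69 for Uhrf1, −0.22 to 0.22 for Ccnd2 and −0.35 to 0.044 for Cdt1. Allogeneic against anti-CD3/CD28 culture ran from −0.16 to 0.36 for Ccnd2, −0.94 to 0.21 for Uhrf1, −0.34 to 0.057 for Orc6, −0.41 to 0.18 for Cdc6, −1.12 to 0.037 for Mcm7, −0.75 to 0.13 for Cdk4, −0.20 to 0.77 for E2f1, −0.30 to 0.33 for Cdt1, −0.89 to 0.075 for Pcna, −0.52 to 0.060 for Rrm2, −0.70 to 0.53 for Tk1 and −0.48 to 0.57 for Gins2.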
